A study of Mus musculus with 10 samples.

Results

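The small leucine-rich proteoglycans are secreted matrix proteins built around a curved stack of leucine-rich repeats, and the 10 genes described here were taken by name: Dcn, Bgn, Aspn, Fmod, Lum, Prelp, Kera, Omd, Ogn and Podn. All 10 were measured among the 22180 genes that the arrays named by a single symbol. Their transcripts were compared in tissue cut from beneath the tracheal epithelium of 5 male FVB/NJ mice that had breathed 235 ppm chlorine for 1 hr and of 5 male FVB/NJ mice that had not. The mice were 9 weeks old, and tracheas of the exposed mice were taken 4 days after the gas. The title of the series concerns fibrotic lesions forming in the trachea, and the comparison asks how gene expression in the mesenchyme, the connective tissue layer, differed at that time. Areas were cut by laser-capture microdissection from stained frozen sections, the material of 1 animal was combined, and each animal gave 1 array. Values are log2 intensities, so that a difference of 1 is a 2-fold change, and the number of arrays limits their precision.

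These proteins bind collagen and set the width and spacing of its fibrils in skin, tendon, cornea, cartilage and airway wall. Decorin (Dcn) and biglycan (Bgn) carry chondroitin or dermatan sulfate chains, while fibromodulin (Fmod), lumican (Lum), keratocan (Kera) and osteomodulin (Omd) can carry keratan sulfate. Several bind TGF-beta, and biglycan and decorin set free from injured matrix can signal through Toll-like receptors of macrophages. In the mouse genome most of the family lies in short runs of adjacent genes.

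After chlorine the family did not move as 1 group. Omd, Fmod and Kera were lower in exposed mice, by 4.67-fold, 3.51-fold and 2.93-fold, and Podn was higher by 1.63-fold. The other 6 members, among them the widely expressed Dcn, Bgn and Lum, did not pass the test. So 4 of 10 members were called in either direction, against 10.8% of all genes tested, with 3 lower, against 4.97%, and 1 higher, against 5.85%. A gene was called where limma's adjusted p (Benjamini-Hochberg over all genes) was under 0.05. The median log2 change of the members was -0.04, with a range from -2.22 to 0.71, beside a median of -0.003 over all genes. The tissue is a mixture of cells, so fewer cells of a type and less RNA per cell cannot be told apart. Exposed mice 1 and 3 had the highest and the lowest mean of 6 epithelial markers among the exposed mice, 9.26 and 8.27, and results were also computed without both. Omd, Fmod and Podn were then still called, at -2.80, -2.36 and 0.70, while Kera was not (-1.49, limma adjusted p = 0.121) and Ogn was (-0.61, limma adjusted p = 0.0279). Mice 1 and 3 held the highest exposed values of Omd, 8.32 and 8.88, and mouse 3 was the highest exposed mouse for Fmod and Ogn. The larger falls of these genes follow from the mice left out and are no separate check of them.

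**Figure D1:**
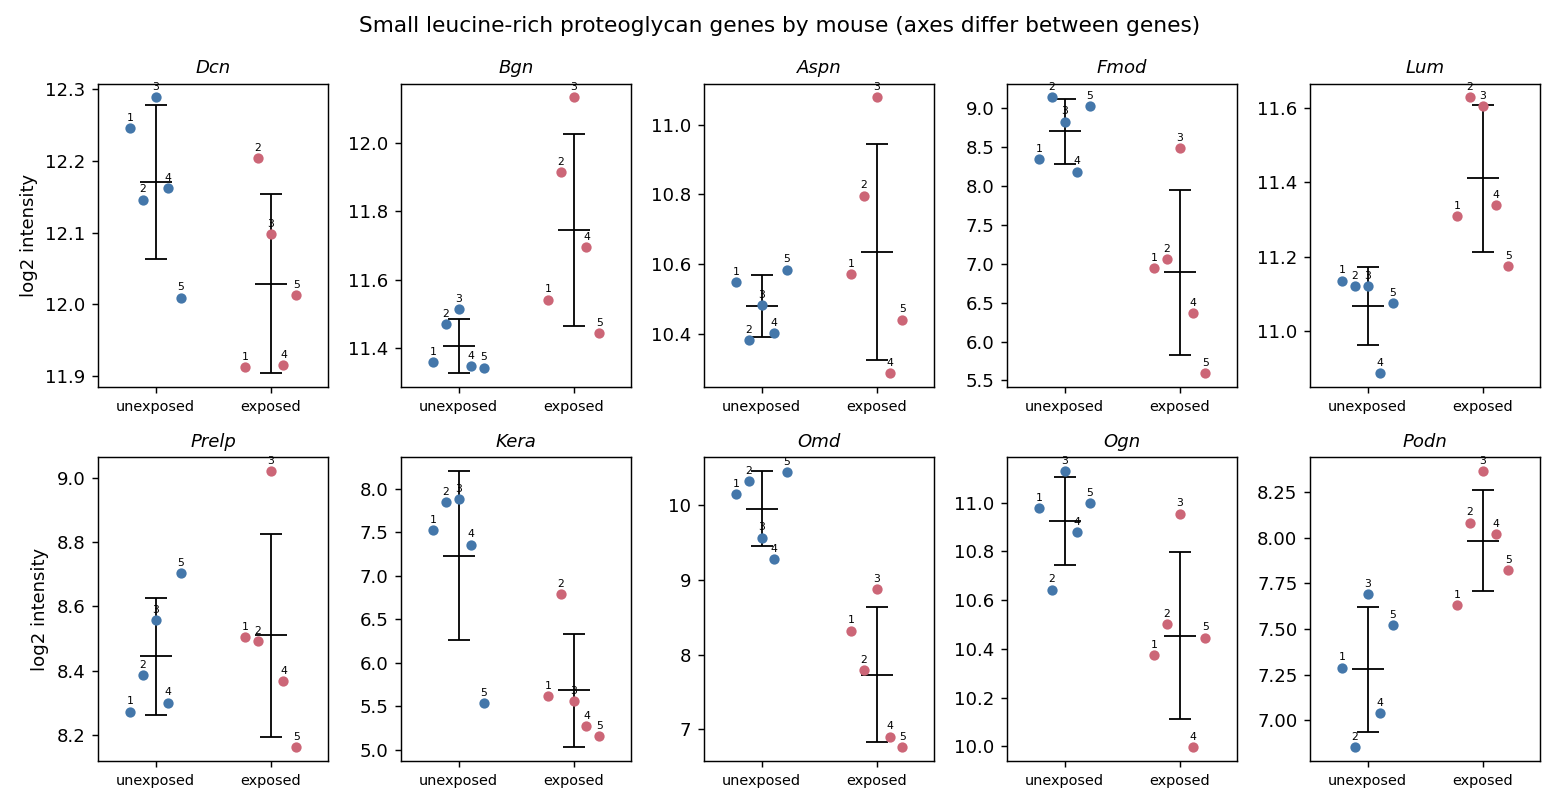
Log2 intensity (vertical axes, which differ between genes) of the 10 genes in unexposed (blue) and exposed (red) mice; each point is 1 mouse with its number, and bars give the mean and SD of 5 mice. All exposed values of Omd lie below all unexposed values, from 6.76 to 8.88 against 9.28 to 10.45, while those of Dcn lie between 11.91 and 12.20 within or near the unexposed range.

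The upstream sequences of Fmod and of 3 adjacent genes, Aspn, Omd and Ogn, are shown. Fmod and Omd had the largest falls, while the neighbours of Omd changed by other amounts, Aspn by 0.15 and Ogn by -0.47. Ecm2, next to Aspn, was called lower (-0.90), and its sequence is not shown. Each sequence shown is the run of 250 bases before the annotated start in RefSeq (build GRCm38.p6), 5′ to 3′ on the strand of the gene. Capitals mark matches, on either strand, to the TATA box letters TATAAA or the SOX core letters AACAAT. A match to the AP-1 letters TGANTCA was also searched and not found in these windows.
Fmod, chr1:134037004-134037253, plus strand: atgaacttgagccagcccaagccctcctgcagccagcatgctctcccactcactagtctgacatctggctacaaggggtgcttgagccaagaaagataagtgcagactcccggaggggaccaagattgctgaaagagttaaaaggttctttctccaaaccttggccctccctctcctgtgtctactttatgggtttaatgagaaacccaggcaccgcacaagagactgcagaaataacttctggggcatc
Aspn, chr13:49544193-49544442, plus strand: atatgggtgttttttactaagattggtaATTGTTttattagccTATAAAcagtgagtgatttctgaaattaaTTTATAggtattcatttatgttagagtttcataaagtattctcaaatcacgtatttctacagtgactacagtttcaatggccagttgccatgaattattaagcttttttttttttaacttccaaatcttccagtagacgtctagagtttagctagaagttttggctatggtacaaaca
Omd, chr13:49582212-49582461, plus strand: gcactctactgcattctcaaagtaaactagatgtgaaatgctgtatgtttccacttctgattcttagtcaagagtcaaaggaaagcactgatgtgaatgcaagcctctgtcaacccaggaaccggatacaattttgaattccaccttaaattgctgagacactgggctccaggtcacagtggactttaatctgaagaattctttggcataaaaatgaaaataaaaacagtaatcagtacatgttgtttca
Ogn, chr13:49607765-49608014, plus strand: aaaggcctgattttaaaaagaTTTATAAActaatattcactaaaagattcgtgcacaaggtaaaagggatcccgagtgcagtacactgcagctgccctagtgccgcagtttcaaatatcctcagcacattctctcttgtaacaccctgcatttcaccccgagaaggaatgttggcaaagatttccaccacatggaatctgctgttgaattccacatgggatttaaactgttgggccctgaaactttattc
The windows of Fmod and Omd held neither motif. That of Ogn held TATAAA in both orientations, overlapping by 4 bases, and that of Aspn held TATAAA in both orientations and AACAAT once in reverse. The TATAAA matches began 227 and 229 bases before the annotated start in Ogn, and 207 and 178 bases before it in Aspn. Over the 32851 windows of this length in the same table, 12.4% held TATAAA, 9.42% AACAAT and 6.75% TGANTCA. Of the 9 windows matched to 8 members, 2 held TATAAA, 3 held AACAAT and 0 held TGANTCA. Among windows not shown, that of Kera, also called lower, held AACAAT in both orientations. Those of Bgn and Podn, which did not fall, held none of these letters. Presence of a match therefore did not separate the members that fell from the others. A match is a run of letters, not a binding site, and its absence says only that these letters are not in the window.

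Omd encodes osteomodulin, an acidic keratan sulfate protein best known from mineralizing tissue, and it had the largest change of the family. In unexposed mice 1 to 5 its values (probe set 17287170) were 10.15, 10.33, 9.57, 9.28 and 10.45. Exposed mice 1 to 5 gave 8.32, 7.80, 8.88, 6.90 and 6.76. The groups did not overlap, and exposed mouse 3, the highest of its group, still lay below every unexposed mouse. The mean fell from 9.96 ± 0.50 to 7.73 ± 0.91 (SD, n = 5 each), a log2 change of -2.22 (SE 0.40, limma adjusted p = 0.00422). With any 1 mouse left out it remained called, with changes from -2.51 to -1.98 (limma adjusted p 0.00119 to 0.0139).

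Fmod encodes fibromodulin, which binds type I collagen and TGF-beta and shapes fibrils in tendon and cartilage. Unexposed mice 1 to 5 had gene values of 8.34, 9.13, 8.82, 8.18 and 9.02. In exposed mice 1 to 5 the values were 6.95, 7.06, 8.48, 6.37 and 5.59. Exposed mouse 3 lay inside the unexposed range and the other 4 exposed mice lay below it. The mean went from 8.70 ± 0.42 to 6.89 ± 1.06 (SD, n = 5 each), a log2 change of -1.81 (SE 0.43, limma adjusted p = 0.0206). Its probe sets 17217373 and 17227083 changed by -1.85 and -1.77. When every probe set was tested by itself, the first was called and the second was not (limma adjusted p = 0.0358 and 0.0530). The call was also lost without exposed mouse 4 or unexposed mouse 2 or 5 (limma adjusted p 0.00120 to 0.0545 over the 10 mice left out in turn). Without exposed mouse 3 the change was -2.21.

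Kera encodes keratocan, a keratan sulfate protein that is abundant in the cornea and also made in other connective tissue. Its values in unexposed mice 1 to 5 (probe set 17236816) were 7.52, 7.85, 7.88, 7.36 and 5.53. Exposed mice 1 to 5 stood at 5.62, 6.79, 5.56, 5.27 and 5.16. Unexposed mouse 5 lay among the exposed mice, and exposed mouse 2 lay above the rest of its group. The other exposed values lay near the array medians, which ran from 5.10 to 5.18. The log2 change was -1.55 (SE 0.44, limma adjusted p = 0.0456), from 7.23 ± 0.97 to 5.68 ± 0.65 (SD, n = 5 each). This call was kept only without exposed mouse 2 or unexposed mouse 5 and lost without any 1 of the other 8 mice (limma adjusted p 0.00305 to 0.106). Without unexposed mouse 5 the change was -1.97. When every probe set was tested by itself, Kera was not called (limma adjusted p = 0.0839).

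Podn encodes podocan, a family member of smooth muscle and other mesenchyme, and was the 1 member called higher. It stood at 7.29, 6.85, 7.69, 7.04 and 7.52 in unexposed mice 1 to 5 (probe set 17427970). The exposed mice, again 1 to 5, gave 7.63, 8.08, 8.37, 8.02 and 7.82. Only exposed mouse 1 and unexposed mouse 3 overlapped. The mean went from 7.28 ± 0.34 to 7.98 ± 0.28 (SD, n = 5 each), a log2 change of 0.71 (SE 0.18, limma adjusted p = 0.0271). The call was lost when exposed mouse 2, 3 or 4 was left out, and likewise for unexposed mouse 1, 2 or 4 (limma adjusted p 0.0152 to 0.0696), while the change stayed between 0.60 and 0.81. When every probe set was tested by itself, Podn was not called (limma adjusted p = 0.0543).

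Lum and Bgn were somewhat higher in exposed mice without passing the test. Lum encodes lumican, a keratan sulfate protein of interstitial collagen in skin, cornea and airway wall. Unexposed mice 1 to 5 had Lum values of 11.14, 11.12, 11.12, 10.89 and 11.07 (probe set 17236811). Exposed mice had 11.31, 11.63, 11.60, 11.34 and 11.17. Its groups did not overlap. Of the 10 members 2 were of this kind, against 11.0% of all genes: Lum, higher as were 5.89% of genes, and Omd, lower as were 5.06%. The change of Lum was 0.34 (SE 0.11, 95% interval 0.10 to 0.58, limma adjusted p = 0.0700), and it passed without exposed mouse 5 (0.40, limma adjusted p = 0.0464, over a range of 0.0464 to 0.155).

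Bgn encodes biglycan, the closest relative of decorin in the list. Its gene values were 11.36, 11.47, 11.51, 11.35 and 11.34 in unexposed mice 1 to 5. They were 11.54, 11.91, 12.13, 11.69 and 11.44 in exposed mice 1 to 5. Exposed mouse 5 was the exposed mouse that lay inside the unexposed range. The change was 0.34 (SE 0.13, 95% interval 0.05 to 0.62, limma adjusted p = 0.129). Its probe sets 17535558 and 17542364 changed by 0.23 and 0.45.

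Dcn encodes decorin, the main small proteoglycan of fibrillar collagen. Unexposed values were 12.25, 12.15, 12.29, 12.16 and 12.01, and exposed values 11.91, 12.20, 12.10, 11.92 and 12.01, both in the order of mice 1 to 5 (probe set 17236800). The groups overlapped, with a change of -0.14 (SE 0.09, 95% interval -0.35 to 0.06, limma adjusted p = 0.406). A change of more than 1 log2 unit in either direction lies outside that interval.

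Aspn encodes asporin, which has a run of acidic residues near its start and binds collagen and TGF-beta. Its unexposed mice lay between 10.38 and 10.58 and its exposed mice between 10.29 and 11.08 (probe set 17287160), with exposed mouse 3 highest and exposed mouse 4 lowest. The change was 0.15 (SE 0.14, 95% interval -0.15 to 0.46, limma adjusted p = 0.565). Ogn encodes osteoglycin, also called mimecan, and ranged from 10.64 to 11.13 in unexposed and from 9.997 to 10.95 in exposed mice (probe set 17287175). Exposed mouse 3 lay within the unexposed range and the other 4 exposed mice below it. Ogn changed by -0.47 (SE 0.16, 95% interval -0.82 to -0.12, limma adjusted p = 0.0908). It passed without exposed mouse 3 (-0.60, limma adjusted p = 0.0174, over a range of 0.0174 to 0.182).

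Prelp encodes a family member with a basic, heparin-binding start that links basement membranes to collagen. Its gene values ranged from 8.27 to 8.70 in unexposed and from 8.16 to 9.02 in exposed mice. The change was 0.07 (SE 0.15, 95% interval -0.27 to 0.40, limma adjusted p = 0.852), and it turned to -0.06 without exposed mouse 3. Prelp joins the probe set 17227077, which ran from 10.64 to 11.56 over all mice and changed by 0.16 (SE 0.16), with 17217369, which ran from 5.68 to 6.49 and changed by -0.02 (SE 0.16). Neither was called when tested by itself (limma adjusted p = 0.689 and 0.961).

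**Figure D2:**
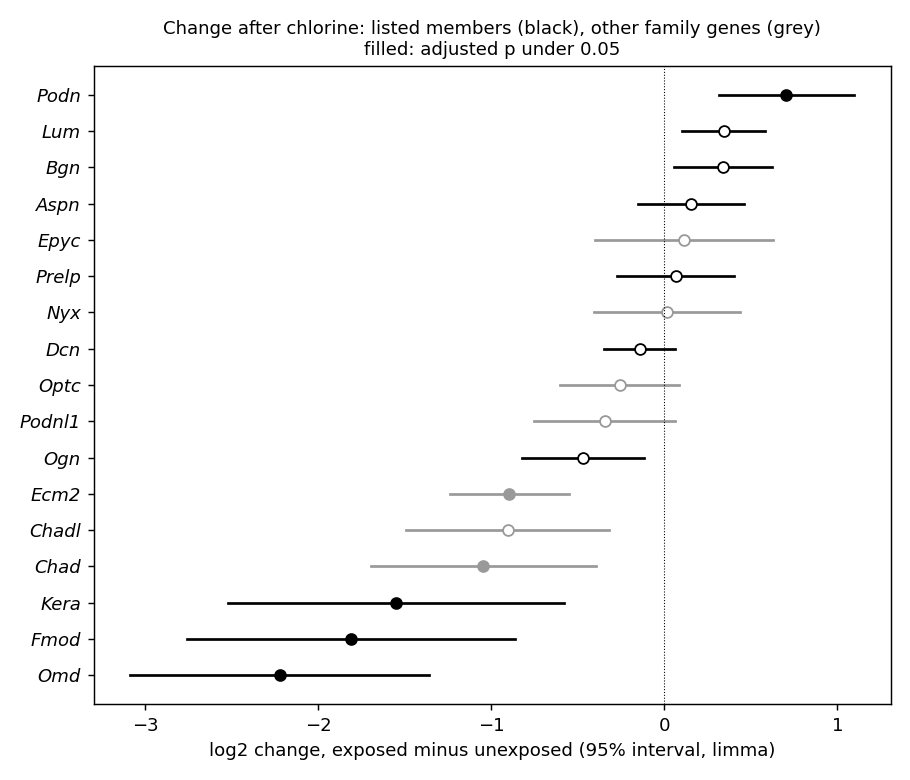
Log2 change of each gene (horizontal axis, exposed minus unexposed) with its 95% interval from limma for the 10 listed members (black) and 7 further family genes (grey), n = 5 mice per group; filled points passed an adjusted p under 0.05. Omd, Fmod and Kera lie farthest to the left at -2.22, -1.81 and -1.55, and Podn farthest to the right at 0.71.

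The exposed mice spread more than the unexposed mice for 8 of the 10 members by their SD; over all genes the exposed SD was the larger for 60.6%. Exposed mouse 3 had the highest value of its group for 7 members, Bgn, Fmod, Ogn, Omd, Prelp, Aspn and Podn. Exposed mouse 2 was highest for the other 3, Dcn, Lum and Kera. Exposed mouse 5 was lowest for 6 members, Bgn, Fmod, Lum, Omd, Prelp and Kera. In the unexposed group the highest values were spread over 4 mice, with mouse 3 highest for 5 members. Taken across genes, which do not count as replicates, the arrays of unexposed mice correlated at 0.982 to 0.986 (Pearson's r) and those of exposed mice at 0.947 to 0.983.

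Adjacent genes of the family changed by different amounts. Ecm2, Aspn, Omd and Ogn lie side by side on chromosome 13, Dcn, Lum, Kera and Epyc on chromosome 10, and Optc, Prelp and Fmod on chromosome 1, with 0 other protein-coding genes between them in the RefSeq table. To ask whether 2 members changed by different amounts, their log2 difference was taken in each mouse. Groups were compared on it by an exact permutation test, two-sided, of the 10 mice. There were 9 such pairs, 7 from the same run of genes and 2 of close relatives. Omd lies between Aspn and Ogn, and Lum lies between Dcn and Kera. Within chromosome 13 and within chromosome 10 each difference follows from the other 2, so the 9 tests were not independent. Pairs with Ecm2, Epyc or Optc were not tested, nor were arbitrary pairs of genes. All 9 passed after adjustment over the pairs (exact permutation p = 0.00794 to 0.0238, adjusted p = 0.0102 to 0.0238), and 0.00794 is the smallest p that the design allows. Most pairs hold Omd, Fmod or Kera, which were called lower by themselves, so their passing largely repeats those calls. The share of other gene pairs that would pass or lie apart was not computed, so these counts show nothing particular to neighbours or to the family. The differences below are changes of 1 gene minus changes of another and say nothing of which is the more abundant.

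On chromosome 13, Aspn minus Omd went from 0.52 ± 0.47 to 2.90 ± 0.67 (SD, n = 5 each), a shift of 2.38. Omd minus Ogn shifted by -1.75, from between -1.59 and -0.32 in unexposed to between -3.69 and -2.05 in exposed mice. Even Aspn and Ogn, neither of which passed alone, moved apart by 0.63, from -0.44 ± 0.14 to 0.18 ± 0.13 (SD, n = 5 each). For these 3 pairs the groups did not overlap (exact permutation p = 0.00794, adjusted p = 0.0102 each). On chromosome 1, Fmod minus Prelp shifted by -1.88, from 0.26 ± 0.32 to -1.62 ± 0.75 (SD, n = 5 each), again without overlap.

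On chromosome 10, Dcn minus Lum shifted by -0.48, from between 0.93 and 1.28 to between 0.49 and 0.84. Dcn minus Kera shifted by 1.41 and Lum minus Kera by 1.89, and in both unexposed mouse 5 lay among the exposed mice. Dcn minus Kera did not pass without any 1 of unexposed mice 1 to 4 (exact permutation adjusted p = 0.0556 to 0.0635). Without exposed mice 1 and 3 together, neither Dcn minus Kera nor Lum minus Kera passed (exact permutation adjusted p = 0.0714 each). Of the close relatives, Dcn minus Bgn shifted by -0.48, from 0.76 ± 0.09 to 0.28 ± 0.22 (SD, n = 5 each). Fmod minus Lum, both of them keratan sulfate carriers that bind type I collagen, shifted by -2.15, from -2.37 ± 0.37 to -4.52 ± 0.91 (SD, n = 5 each). Neither of these last 2 pairs overlapped between groups.

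**Figure D3:**
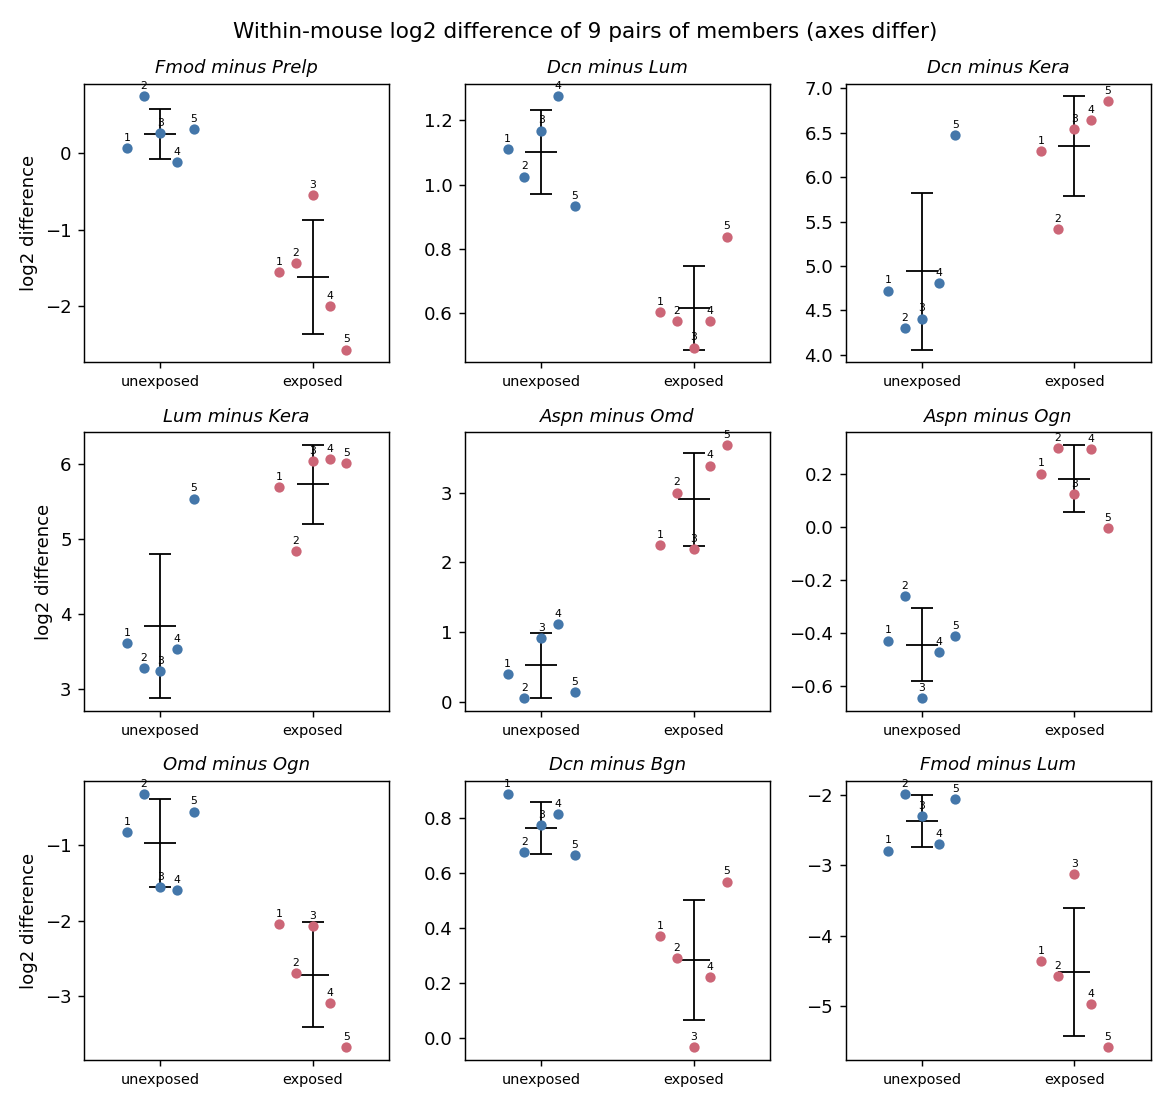
Within-mouse log2 difference (vertical axes, which differ between panels) of 9 pairs of members in unexposed (blue) and exposed (red) mice; points are single mice with their numbers, and bars give the mean and SD of 5 mice. The groups lie apart in 7 panels, for example Aspn minus Omd with 0.06 to 1.12 in unexposed and 2.19 to 3.68 in exposed mice, and overlap in the 2 panels with Kera.

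Of 7 further genes of the family, Ecm2 and Chad were called lower, against 4.97% of all genes, and 0 were called higher, against 5.85%. Ecm2, a collagen-network glycoprotein gene next to Aspn, fell from 9.55 ± 0.19 to 8.66 ± 0.32 (SD, n = 5 each), a log2 change of -0.90 (SE 0.16, limma adjusted p = 0.00396), with no overlap between groups. Chad, the cartilage protein chondroadherin, changed by -1.04 (SE 0.30, limma adjusted p = 0.0448). It was kept only without exposed mouse 1 or 3 (limma adjusted p 0.0154 to 0.107 over the mice left out). Chad also lost its call with array medians centred, with trend and robust settings and with the mouse number as a block (limma adjusted p = 0.0527, 0.0764 and 0.0774). Its relative Chadl changed by -0.91 (SE 0.27, limma adjusted p = 0.0517) and passed without exposed mouse 3 (-1.15, limma adjusted p = 0.00369, over a range of 0.00369 to 0.116). The changes of Podnl1 (-0.34), Optc (-0.26), Epyc (0.11) and Nyx (0.02) did not pass (limma adjusted p = 0.293 to 0.972).

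Of 15 measured cartilage markers, 4 were called lower, against 4.97% of all genes, and 11 were not called. All 15 had changes below 0, with a median of -1.01, while 11217 of 22180 genes had changes below 0. The called markers were Cnmd (-2.41), Matn1 (-1.56), Matn3 (-1.19) and Chad, which is counted under both lists. The matrix genes Acan (-0.81) and Col2a1 (-0.57) did not pass (limma adjusted p = 0.408 and 0.462). Mean cartilage marker values in exposed mice 1 to 5 were 7.75, 7.16, 8.55, 7.39 and 6.36, against 7.90 to 8.94 in unexposed mice, so that the groups overlapped. Exposed mouse 3 was thus highest and exposed mouse 5 lowest, as for Omd and Fmod. The same mice were highest and lowest of the exposed group for Chad, Chadl, Bgn, Prelp and the means of smooth muscle and of tendon and perichondrium markers. What lay behind this order was not tested. Of 6 markers of tendon and perichondrium, Wif1 was called lower (-1.20) and the other 5 did not pass. Thbs4 was the 1 with a change above 0 (0.61, limma adjusted p = 0.160). The mean of the 6 lay at 6.32 to 6.92 after chlorine and at 6.90 to 7.43 without it. The part of cartilage and tendon markers in the changes of the members was not tested. Matn3 was not called when exposed mouse 2, 4 or 5 was left out, nor without unexposed mouse 2, 3 or 5 (limma adjusted p 0.0101 to 0.0652).

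**Figure D4:**
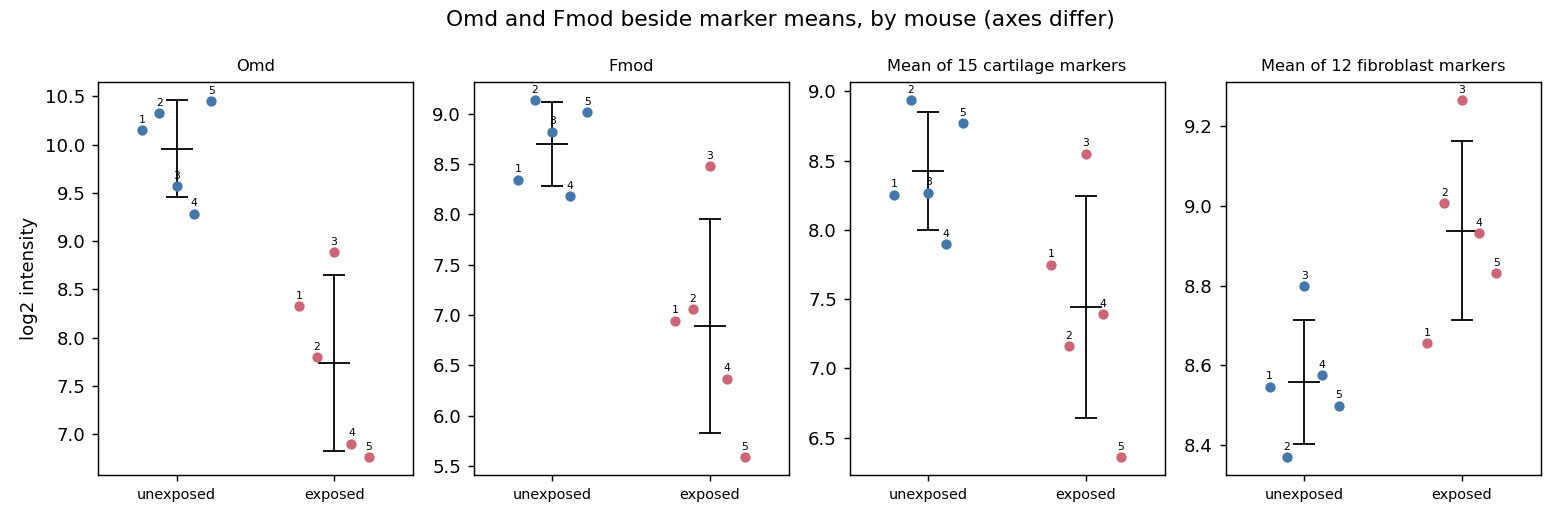
Log2 intensity (vertical axes, which differ between panels) of Omd, Fmod, the mean of 15 cartilage markers and the mean of 12 fibroblast markers in unexposed (blue) and exposed (red) mice; points are single mice with their numbers, and bars give the mean and SD of 5 mice. Exposed mouse 3 is the highest exposed mouse in all 4 panels, and exposed mouse 5 is the lowest in the first 3.

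The mean of 12 markers of fibroblasts, the defining cells of the labelled tissue, was above 8 in all mice. Of these markers Clec3b, Meox1 and Tcf21 lay below 8 in both groups. Changes were above 0 for 10 of 12 markers, and for 10963 of 22180 genes. Called higher were 4, Col1a1 (0.87), Mfap5 (0.74), Tcf21 (0.71) and Pdgfra (0.68), and 0 lower. Over all genes, 5.85% were called higher and 4.97% lower. The mean of the 12 fibroblast markers ranged from 8.66 to 9.27 in exposed and from 8.37 to 8.80 in unexposed mice. Of 7 macrophage markers, 6 were called higher, led by Cd68 (1.79), Mrc1 (1.41) and Fcgr1 (1.28), and the mean of the 7 did not overlap between groups (7.59 to 8.46 against 6.59 to 7.16). Of 8 smooth muscle markers and of 6 epithelial markers 0 were called, and the epithelial mean lay at 8.27 to 9.26 after chlorine and at 8.68 to 9.14 without it. Of 6 endothelial markers Tek was called higher (0.46), and of 7 striated muscle markers Tnnt3 lower (-1.07). The 7 striated muscle markers had a median change of 0.06, with 4 above 0 and 3 below. Acta1 was the highest of them at 0.75 (limma adjusted p = 0.0888). Of 5 adipocyte markers 0 were called. The part of these markers in the members' changes was not tested either. Leaving out unexposed mouse 1 or 5 ended the call of Pdgfra, and leaving out exposed mouse 2 or unexposed mouse 3 that of Tnnt3. Tek kept its call only without exposed mouse 1 or unexposed mouse 3.

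The collagens that these proteins bind were mostly higher. Of 12, 7 were called higher, against 5.85% of all genes, and 0 lower, against 4.97%, with a median change of 0.68. Col5a2, a chain of the collagen that starts type I fibrils, rose from 6.79 to 8.10 (1.31, SE 0.15, limma adjusted p = 0.000331). The microfibrillar chain Col6a3 rose by 1.25, Col3a1 by 1.04 and Col1a1 by 0.87. The groups did not overlap for any of the 7, where 5.89% of all genes were higher without overlap. Without exposed mouse 4 neither Col1a1 (limma adjusted p = 0.0501) nor Col5a1, called at 0.63, passed, and Col5a1 also failed without unexposed mouse 1, 4 or 5.

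Of 27 measured genes that build the sugar chains of the family, 2 were called, against 10.8% of all genes. Of 20 measured genes of chondroitin and dermatan sulfate synthesis 0 were called, and the smallest p was that of Dse, the epimerase that makes dermatan (0.40, SE 0.15, limma adjusted p = 0.123), which passed without exposed mouse 1 (limma adjusted p = 0.0441, over a range of 0.0441 to 0.243). Of 7 keratan sulfate genes, the galactosyltransferases B4galt1 (0.52, limma adjusted p = 0.0145) and B4galt4 (-0.85, limma adjusted p = 0.00360) were called in opposite directions. Exposed and unexposed values did not overlap for B4galt1 or for B4galt4, as for 11.0% of all genes.

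Some receptors and proteases of the family's proteins were higher. Over all genes, 5.85% were called higher and 4.97% lower. Of 10 ligands and receptors, the endocytic receptor Lrp1 (0.72) and the growth factor receptor Egfr (0.57), both of which bind decorin, were called higher and 0 lower. Tgfb1 changed by 0.51 (limma adjusted p = 0.0615) and passed without exposed mouse 1 (limma adjusted p = 0.0447, over a range of 0.0447 to 0.139). Of 14 proteases that process or cleave these proteins, 5 were called higher and 0 lower, with a median change of 0.33. Mmp3, which cleaves decorin, rose by 1.73 (SE 0.34, limma adjusted p = 0.00758), the membrane-bound Mmp14 by 1.52 and the aggrecanase Adamts4 by 0.86. Bmp1, which trims biglycan and osteoglycin from their precursors, and Mmp2 were the other 2 called, at 0.57 and 0.45. Bmp1 kept its call in 4 and Mmp2 in 5 of the 10 fits with a mouse left out; both lost it without exposed mouse 4 or unexposed mouse 1, 4 or 5, Bmp1 also without exposed mouse 2 or 3 and Mmp2 without exposed mouse 5.

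Of 22 other proteoglycans, 3 were called higher and 2 lower, where 5.85% and 4.97% of all genes were. The large hyaluronan-binding Vcan rose from 8.17 to 9.50 (1.33, SE 0.17, limma adjusted p = 0.000559), Prg4, which encodes lubricin, by 1.30 and the leukocyte granule proteoglycan Srgn by 0.75. The glypicans Gpc3 (-0.90) and Gpc6 (-0.78) fell. Srgn kept its call only without exposed mouse 1 or 5, and Gpc6 only without exposed mouse 3 or unexposed mouse 3 or 4.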

How the data were processed

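The authors deposited log2 intensities per probe set; the submitters' processing notes name Partek 6.6 and RMA (robust multi-array averaging), and the log base was read from the range of the values. For RMA settings, filters and annotation build, the sources used here give nothing. RMA makes arrays share a distribution, so values are relative within an array, and low values have no detection limit. Of 41345 probe sets, 23521 had 1 gene symbol by the platform annotation, 1814 several and 16010 were not listed and stay unnamed. A gene's value was the mean of its single-symbol probe sets. Entrez numbers of 23328 matched RefSeq (GRCm38.p6) and 0 symbols changed.

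Groups were compared on all 22180 genes with limma 3.58.1 in R 4.3.3 (lmFit, eBayes, two-sided, no covariate); a call is an adjusted p under 0.05. Pairs were compared by exact permutation. The fits were tested on simulated data. Alternatives covered normalization, probe sets, thresholds, variance model, a replicate block and mice left out. Tables used Python 3.11.15 and pandas 2.3.3, figures matplotlib 3.10.9.

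The members and lists were chosen with earlier results of these data known. Every member and other family gene is named; each pathway list names up to 3 called rises and falls, or the smallest p where none was called, and Col1a1, Col3a1 and Tgfb1 always. Acan, Col2a1, Bmp1, Mmp2, Col5a1 and called marker genes were also named, after their values were seen. Lists measured 20 of 22 (Chpf2 and Chst15 not analysed here) and 7 of 8 (Tsku) genes, the others reported here in full. A further marker list is not reported here.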

Additional observations from a re-analysis of the deposited data

Results flagged for a closer look

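Among 54 groups of 5 mice checked for a single distant value, over 17 family genes and 10 marker means, 3 held one; chance gives about 1 in 20 groups. Unexposed mouse 5 stood at 5.53 for Kera, against 7.36 to 7.88 in the other 4 unexposed mice. Exposed mouse 2 stood at 6.79 for Kera, against 5.16 to 5.62 in the other exposed mice. Unexposed mouse 4 stood at 10.89 for Lum, against 11.07 to 11.14 in the others of its group.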

How the results depend on the processing

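The direction of change held for Omd, Fmod, Kera, Podn, Lum, Bgn, Ogn, Dcn and Aspn in all 20 alternatives run for each. Some of the 20 could not turn it, because they leave the change itself as it was. These were dim genes left out, trend and robust settings, the replicate block, the 1.2-fold test and the 0.01 threshold. For genes with 1 probe set, the choice of the brightest probe set was another. Prelp, which was never called, turned to -0.10 without exposed mice 1 and 3, to -0.063 without exposed mouse 3, and ran from -0.06 to 0.15 with 1 mouse left out. Omd was called in all 20. The counts of members called higher and lower, 1 and 3, became 0 and 1 at an adjusted p under 0.01 and also 0 and 1 in a test against a 1.2-fold change, where all genes gave 619 higher and 435 lower, and 504 and 345. Members higher numbered 2 with dim genes left out and with trend and robust settings, Lum being added (limma adjusted p = 0.0336 and 0.0247), and 0 with every probe set tested by itself. With 1 mouse left out, 0 to 2 members were higher and 1 to 3 lower, and 723 to 1407 genes lower. Array weights and the fit without exposed mice 1 and 3 added a call for Ogn (limma adjusted p = 0.0352 and 0.0279). Centring on array medians and trend and robust settings ended the call of Kera (limma adjusted p = 0.0509 and 0.0728) and of Chad (0.0527 and 0.0764). The cause of these changes was not tested. Pairs that differed numbered 7 to 9. Across genes, deviations from the group mean correlated between same-numbered mice at r of -0.05 to 0.12 over the 5 numbers. No r of differently numbered mice was set beside these, so the check cannot settle whether the numbers pair the groups. With the replicate block 1 member was higher and 3 lower, and 1026 and 854 genes were. Kera then had a limma adjusted p of 0.0156. All-gene counts were not made for single probe sets.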
